A study of Mus musculus with 32 samples.

Results

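The genes described here are 34 proliferation and mitosis genes taken by their mouse symbols, of which 32 were measured among the 15780 named genes of the expression table. They were listed by name and not by their values, and they fall into 20 mitosis genes (19 measured), 11 genes of DNA replication and nucleotide supply (10 measured) and 3 regulators of the G1 phase, the growth phase before replication (3 measured). Ccnb1 and Pcna were not analysed here. The 32 measured genes had a value in each of 32 whole-kidney RNA samples, 1 per array, hybridized to Affymetrix arrays, and all values below are log2 expression values. The 26 NZB/W kidneys were 7 from untreated, non-proteinuric mice 30 weeks old, 14 from mice given triple therapy with CTX, CTLA4Ig and anti-CD154 (8 taken in early and 6 in late remission), and 5 from mice given Ad-TACI-Ig and CTLA4Ig and taken in late remission. A 30-week and an early remission sample carry the same mouse code. The other 6 kidneys came from NZM2410 mice in remission after Ad-BAFF-R-Ig. NZB/W mice are the F1 hybrid of NZB and NZW mice, NZM2410 is an inbred strain derived from the same cross, and both develop lupus nephritis without induction. CTX is cyclophosphamide, CTLA4Ig blocks costimulation of T cells, anti-CD154 binds the CD40 ligand, and Ad marks an adenovirus that makes the animal produce the soluble receptor. The labels give an age for the untreated mice alone, so age, treatment and time cannot be told apart in the comparisons with them. Kidneys with active nephritis and NZM2410 kidneys without treatment were not analysed here, so strain and treatment cannot be told apart in the NZM2410 comparisons.

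Most cells of an adult kidney do not divide, and the messages of proliferation genes in whole-kidney RNA therefore come from few cells, among them tubular cells that replace losses and leukocytes that have entered the tissue. The genes of DNA replication are switched on at the start of replication by E2F factors. The genes of mitosis follow later through the MuvB complex, which binds the cell cycle homology region (CHR) of their promoters. CCAAT boxes often lie near the CHR. Mki67, which encodes the Ki-67 antigen, and Top2a, a topoisomerase that untangles chromosomes, are common markers of dividing cells. In whole-kidney RNA, fewer cells of a type and less RNA per cell cannot be told apart.

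Letters in the promoters, which the list does not use, were counted by class. RefSeq promoters (GRCm38.p6, 250 bases before to 50 bases from the start on, 1 per gene) were matched for 26 of the 32 measured genes, 15 of mitosis, 9 of replication and 2 of the G1 regulators, and both strands were searched. The CHR letters TTTGAA or TTTAAA were present in 14 of 15 mitosis promoters, in 4 of 9 replication promoters and in 27.8% of all 27025 promoters. Taken singly, TTTGAA was in 12 of 15, 1 of 9 and 18.1%, and TTTAAA in 5 of 15, 3 of 9 and 13.2%. CCAAT was present in 14 of 15, 7 of 9 and 37.9%, and CHR letters with CCAAT in 13 of 15, 3 of 9 and 10.9%. The E2F letters TTCGCGC or TTGGCGC or TTCCCGC were present in 2 of 15 mitosis promoters (Mki67 and Cdk1), in 5 of 9 replication promoters (Rrm1, Mcm3, Mcm5, Mcm6 and Mcm7) and in 8.21% of all promoters. TTTAAA is its own reverse complement, and in Mcm6 the letters TTGGCGC overlap the reverse complement of TTCGCGC. These are counts of letters, not of bound sites, and no test was made of them. The 120 bases before the start are shown for 5 mitosis genes and 1 replication gene on which the results below turn, and for Cdkn1a, which held none of the letters, with the searched letters on either strand in capitals and each sequence written 5′ to 3′ along its gene.
Mki67, chr7:135716380-135716499, minus strand: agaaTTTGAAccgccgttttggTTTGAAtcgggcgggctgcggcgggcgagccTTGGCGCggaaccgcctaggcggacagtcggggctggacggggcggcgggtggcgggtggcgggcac
Top2a, chr11:99024190-99024309, minus strand: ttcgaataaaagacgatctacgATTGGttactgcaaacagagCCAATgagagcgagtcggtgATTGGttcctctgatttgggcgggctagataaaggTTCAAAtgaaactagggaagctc
Cdc20, chr4:118437344-118437463, minus strand: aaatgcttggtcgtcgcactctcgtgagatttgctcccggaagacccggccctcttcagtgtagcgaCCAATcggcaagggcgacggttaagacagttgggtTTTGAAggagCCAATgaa
Plk1, chr7:122159315-122159434, plus strand: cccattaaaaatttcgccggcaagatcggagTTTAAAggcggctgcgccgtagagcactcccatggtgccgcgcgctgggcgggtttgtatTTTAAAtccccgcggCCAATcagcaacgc
Ube2c, chr2:164769809-164769928, plus strand: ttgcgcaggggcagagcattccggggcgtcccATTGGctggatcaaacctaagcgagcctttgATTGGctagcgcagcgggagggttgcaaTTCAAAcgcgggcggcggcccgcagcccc
Mcm6, chr1:128359706-128359825, minus strand: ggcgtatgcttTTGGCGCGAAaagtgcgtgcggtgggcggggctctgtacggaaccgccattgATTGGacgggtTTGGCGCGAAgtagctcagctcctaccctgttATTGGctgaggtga
Cdkn1a, chr17:29090859-29090978, plus strand: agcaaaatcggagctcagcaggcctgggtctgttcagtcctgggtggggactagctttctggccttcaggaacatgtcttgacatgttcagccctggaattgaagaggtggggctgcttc
Mki67 carried 2 CHR cores and an E2F element within this window, Top2a a CHR core 23 bases before the start with 3 CCAAT boxes upstream of it, and Mcm6 a pair of E2F elements and 2 CCAAT boxes but no CHR core.

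The samples were kidney by their markers, with Umod, the uromodulin of the thick ascending limb, between 13.34 and 14.05 and Lrp2, the megalin of the proximal tubule, between 12.11 and 13.35. Array medians ranged from 7.035 to 7.174. The SD over probe sets was 1.9 to 2.029 on the NZB/W arrays and 2.108 to 2.169 on the NZM2410 arrays, so that values were spread more widely in the second strain. A gene is called dim here where its mean over the 32 kidneys lay below 6.07, the level under which the lowest 5260 of 15780 genes fall. Of the mitosis genes 13 of 19 were dim, of the replication genes 3 of 10 (Mcm3, Mcm5 and Tyms), and of the G1 regulators 1 of 3 (Ccne1). The late triple therapy kidneys had, for each of the 32 genes, a mean within 0.017 of the pooled mean of all 30-week and TACI-Ig kidneys (within 0.026 over all genes), so the mean comparisons of that group are not separate evidence.

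Between the NZB/W groups none of the 32 genes passed the test, although several of them, Mki67 first, differed widely from kidney to kidney. Limma with Benjamini-Hochberg adjustment over 15780 genes called 0 of 32 in each of the 5 comparisons, against a background of 0% of all genes higher and 0% lower in 4 of them, and of 0% higher and 0.0697% lower between the late and early triple therapy kidneys. At an unadjusted p under 0.05, early remission had 0 genes above and 2 below the 30-week kidneys, where all genes had 855 and 531. The TACI-Ig kidneys had 2 above and 1 below the 30-week kidneys (all genes 1682 and 1526) and 3 above and 2 below early remission (992 and 1344). The late triple therapy kidneys had 0 and 0 against 30 weeks (9 and 37) and 1 and 0 against early remission (237 and 601). A p above the threshold does not show that the groups were alike.

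**Figure D1:**
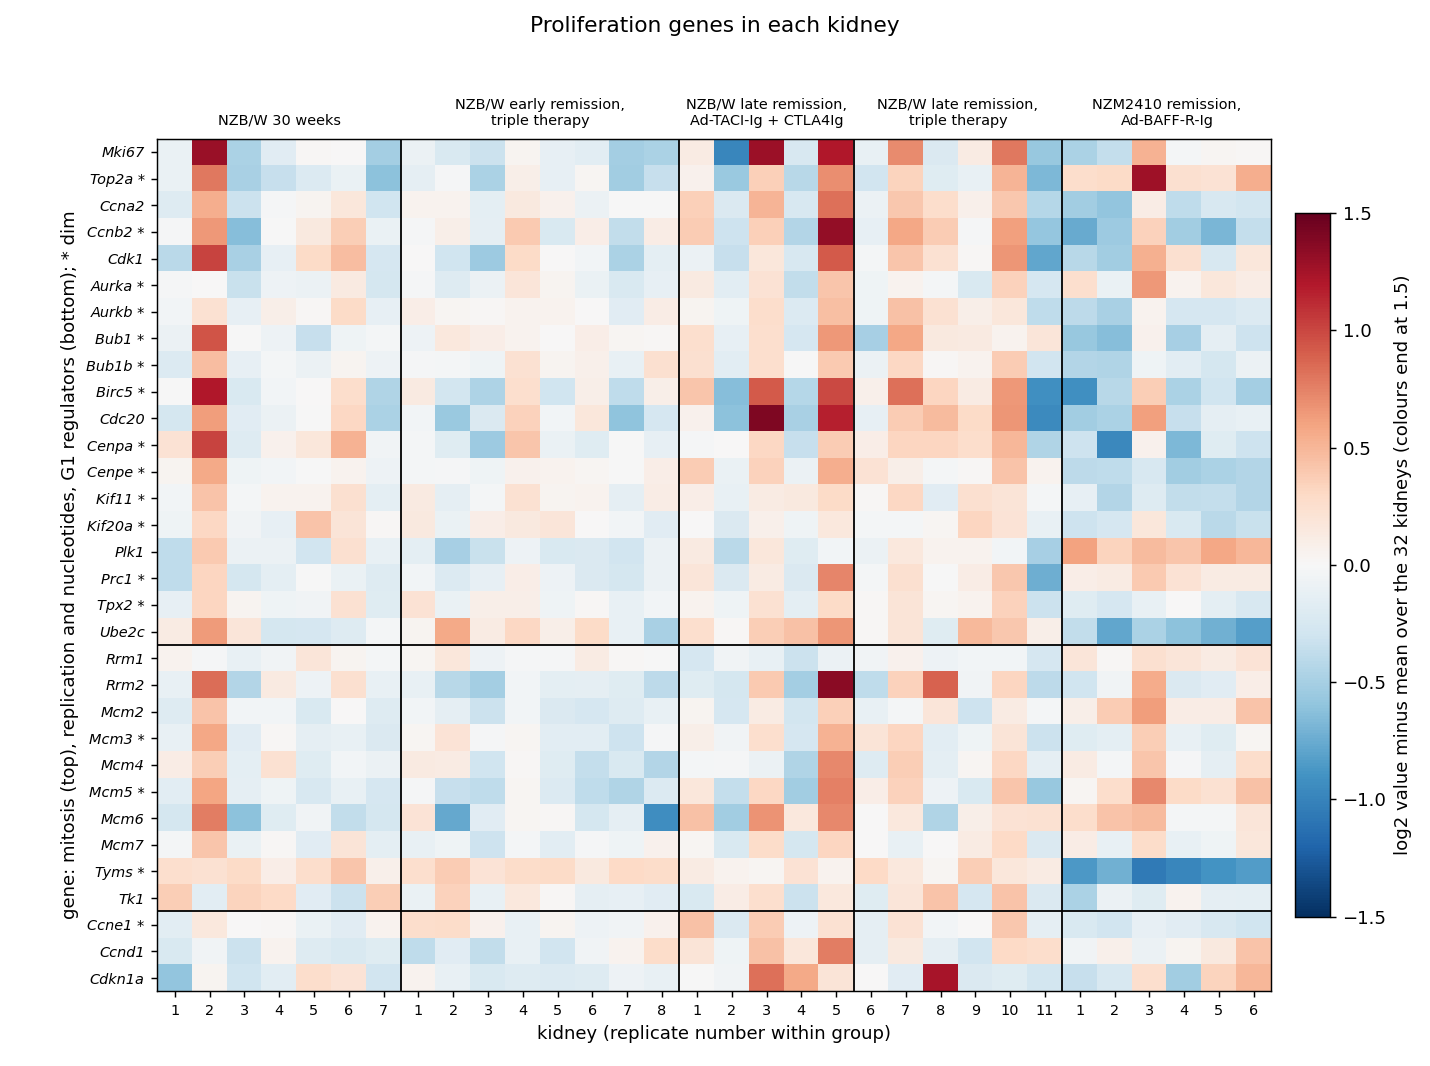
Log2 value of each of the 32 genes (vertical axis, mitosis genes on top, replication genes below them, G1 regulators at the bottom, an asterisk for dim genes) in each of the 32 kidneys (horizontal axis, replicate numbers within 5 groups), minus the gene's mean over the 32 kidneys, with colours ending at 1.5. The column of 30-week replicate 2 is red for nearly all mitosis genes, with Mki67 at 8.87, and the Tyms row is blue in all 6 NZM2410 kidneys, at 4.22 to 4.55.

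Mki67 had single values of 7.47, 8.87, 7.1, 7.4, 7.59, 7.58 and 7.06 in replicates 1 to 7 of the 30-week group. It ranged from 7.06 to 7.61 in early remission, with a median of 7.38, and from 7.01 to 8.37 in late remission after triple therapy. In the TACI-Ig kidneys it was 7.7, 6.6, 8.86, 7.33 and 8.77 in replicates 1 to 5, the lowest value of all 32 kidneys among them. The groups overlapped, and the early remission kidneys were the most alike. Mki67 was 0.24 lower on the log2 scale in early remission than at 30 weeks (SE 0.201, limma adjusted p = 0.763) and 0.52 higher in TACI-Ig kidneys than in early remission (adjusted p = 0.429).

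Among NZB/W kidneys, Top2a was also highest in a 30-week and a TACI-Ig kidney. Its 30-week values lay between 4.71 and 5.22 in 6 kidneys and at 6.11 in replicate 2. The TACI-Ig kidneys had 5.38, 4.76, 5.68, 4.91 and 6.02, and the early remission kidneys 4.8 to 5.41. Cdc20, the activator of the anaphase-promoting complex, spread most in the TACI-Ig group, with 6.39, 5.71, 7.73, 5.84 and 7.5, whereas early remission held 5.73 to 6.67. Birc5, which encodes survivin of the chromosomal passenger complex, reached 6.54 in 30-week replicate 2 and 6.27 and 6.34 in TACI-Ig replicates 3 and 5, and its lowest NZB/W value was 4.43 in replicate 11 of late remission after triple therapy. In each of these genes the kidneys of a group lay further apart than the NZB/W group means.

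Among the genes of the replication fork, Mcm6, a subunit of the MCM helicase that unwinds DNA, was 7.82, 6.86, 8.05, 7.54 and 8.1 in TACI-Ig replicates 1 to 5 and 6.44 to 7.58 in early remission, with a median of 7.22. The difference of means was 0.55 (limma adjusted p = 0.268). Without TACI-Ig replicate 2 it was called, together with Ccnd1 and Cdkn1a, as were 383 genes higher and 693 lower of all, so that this kidney moved the whole comparison. Rrm2, the regulated subunit of ribonucleotide reductase, was lower by 0.31 in early remission than at 30 weeks (SE 0.139, adjusted p = 0.548), which was the smallest p of the 32 genes in that comparison. The catalytic subunit Rrm1 hardly varied, at 7.68 to 7.97 at 30 weeks and 7.47 to 7.74 in TACI-Ig kidneys. Thymidylate synthase, Tyms, also stayed within 5.3 to 5.69 in all 26 NZB/W kidneys.

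Of the 3 classes, the G1 regulators had the largest median difference in the TACI-Ig comparisons, with 3 of 3 genes above 0 in both. A longer list of 26 other G1 regulators had medians of 0.057 against 30 weeks and 0.033 against early remission. Of these 26 genes, 15 and 13 lay above 0. Ccnd1, cyclin D1 that carries cells through G1, was 10.48, 10.22, 10.73, 10.46 and 11.05 in the TACI-Ig kidneys and 9.96 to 10.34 at 30 weeks with a median of 10.09. Of the 5 TACI-Ig kidneys, 4 lay above the highest 30-week kidney. The difference was 0.47 (SE 0.119, limma adjusted p = 0.203), and it was called without TACI-Ig replicate 2, when 517 genes were higher and 792 lower of all. Cdkn1a, the inhibitor p21 that stops the cycle and is induced by p53, was 7.15, 7.11, 7.98, 7.72 and 7.35 in the TACI-Ig kidneys and 6.93 to 7.21 in early remission, where its spread was small. It was 0.44 higher in the TACI-Ig kidneys (SE 0.124, adjusted p = 0.164). Among the late triple therapy kidneys, replicate 8 had a Cdkn1a value of 8.39, while the other 5 ranged from 6.88 to 7.16. Ccne1, cyclin E1 of the entry into replication, had group means between 5.58 and 5.76 in NZB/W kidneys.

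**Figure D2:**
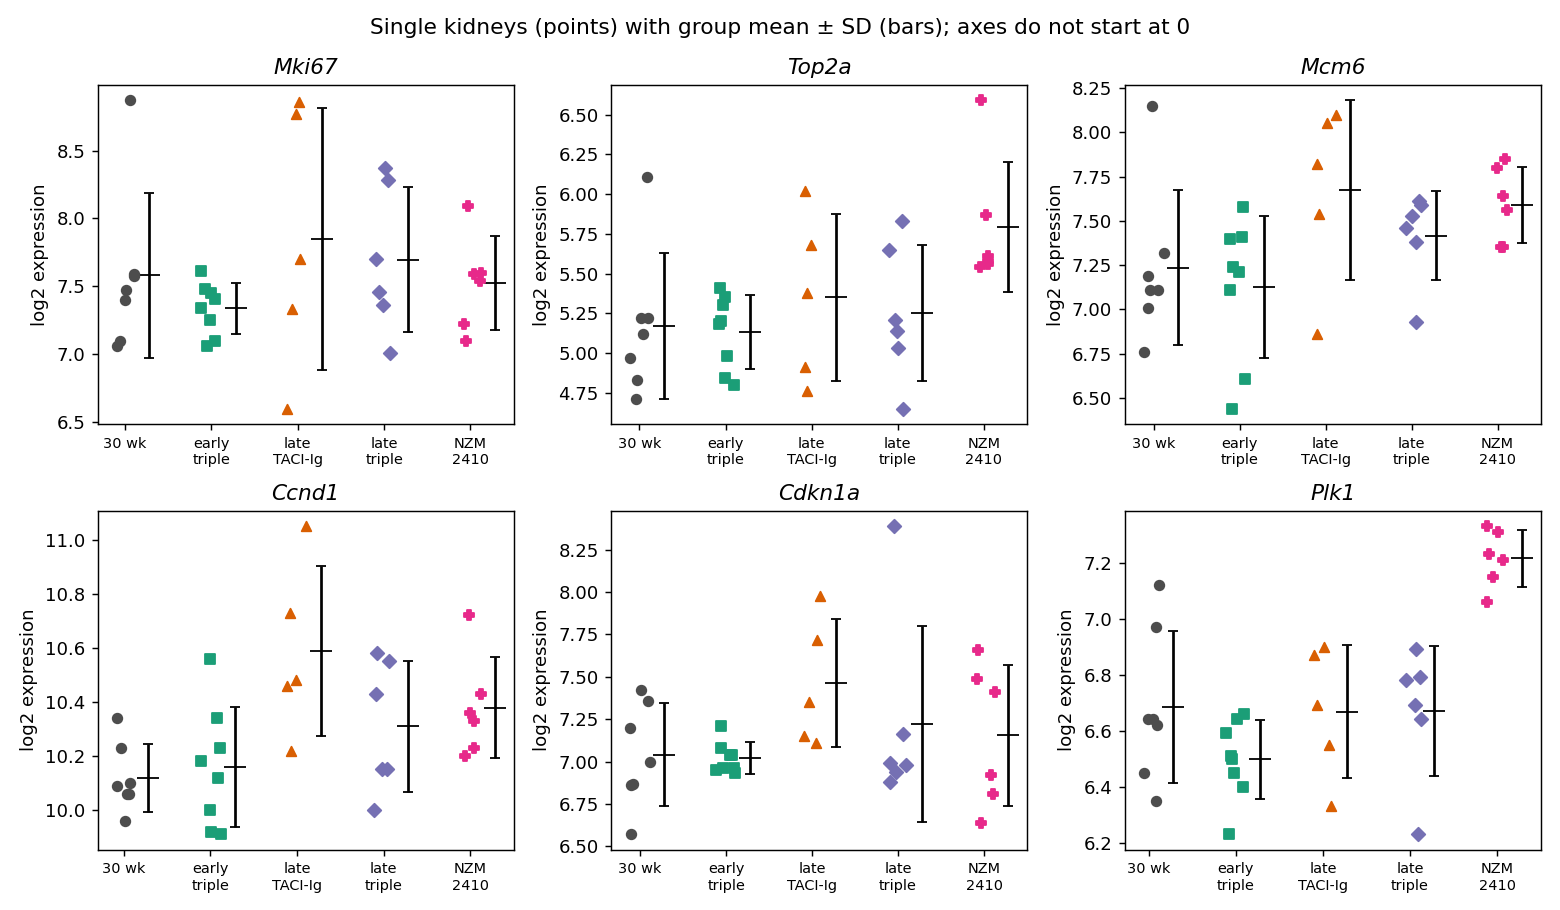
Log2 expression (vertical axes, not starting at 0) of 6 of the genes in single kidneys (points) of the 5 groups (horizontal axes), with the group mean and SD as bars. For Mki67, Top2a and Mcm6 a few 30-week and TACI-Ig kidneys stand above the rest of NZB/W, at up to 8.87, 6.11 and 8.15, while Plk1 is higher in all 6 NZM2410 kidneys than in 25 of the 26 NZB/W kidneys.

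As lists, the mitosis genes had a median log2 difference of −0.045 between early remission and 30 weeks, the replication genes −0.117 and all genes 0.019. Without 30-week replicate 2 these were 0.032, −0.05 and 0.022, so the negative sign of the mitosis genes rested on that kidney. In TACI-Ig kidneys against 30 weeks the medians were 0.144 for mitosis, 0.02 for replication, 0.42 for the 3 G1 regulators and 0.035 for all genes, with 16 of 19 mitosis genes above 0. Without TACI-Ig replicate 5 the mitosis median was −0.01 and the replication median −0.099. Against early remission the TACI-Ig kidneys had medians of 0.198, 0.162, 0.428 and 0.012, and 18 of 19 mitosis genes lay above 0, as did 61 of 64 other mitosis genes of a longer list (median 0.137). Without TACI-Ig replicate 5 the mitosis median there was 0.048. For comparison, 41.3% of all genes lay below 0 in TACI-Ig kidneys against 30 weeks and 45.8% against early remission. The mitosis genes move together, so their signs are not separate events. The late triple therapy kidneys had mitosis medians of 0.062 against 30 weeks and 0.109 against early remission. Macrophage markers had medians of 0.07 and 0.284 in the TACI-Ig comparisons with 30 weeks and early remission, and proximal tubule markers −0.405 and −0.485, with 0 of 16 and 0 of 15 genes called. The marker list that lay furthest apart was that of the adrenal gland, with medians of −2.41 and −1.639 and 0 of 12 genes above 0 in both comparisons, and again 0 called. The other marker lists had medians between −0.264 (kidney, against early remission) and 0.271 (tubular injury, against early remission). The part of these lists in the medians of the mitosis genes was not tested.

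The feature that stood out was the spread between kidneys of the same group. Over the NZB/W groups, the median within-group SD was 0.29 for the mitosis genes, 0.255 for the replication genes, 0.227 for the G1 regulators and 0.145 for all genes, although dim genes as a whole varied less (0.127). Of the 32 genes, 30 varied more than the median gene. Mki67 had the widest spread, with an SD of 0.589 at percentile 99.0 of all genes, followed by Cdc20 (0.555), Birc5 (0.538), Rrm2 (0.457) and Cdk1, the kinase that drives mitosis (0.455). Rrm1 (0.097) and Tyms (0.099) were the exceptions, at percentiles 11.5 and 12.3. Early remission was the most even group, with a median mitosis SD of 0.13 against 0.128 for all genes. It was 0.308 at 30 weeks, 0.315 in TACI-Ig and 0.321 in late triple therapy kidneys. Without 30-week replicate 2 the 30-week value was 0.2, against 0.11 for all genes.

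The spread lay in single kidneys in which the genes moved together. When each gene was centred on its mean over 32 kidneys and the mitosis genes were averaged, 30-week replicate 2 had a mean of 0.619 and the other 6 kidneys of its group −0.206 to 0.161. TACI-Ig replicates 5 and 3 had 0.634 and 0.407, replicate 1 had 0.161, and replicates 4 and 2 had −0.199 and −0.278. Such pairs of high and low kidneys also occurred later after triple therapy. There replicates 10 and 7 had 0.405 and 0.343 and replicate 11 had −0.401. Early remission ranged from −0.226 to 0.176. NZM2410 replicate 3 had 0.239 and the other 5 kidneys −0.364 to −0.156. Replicate 2 at 30 weeks held the highest value of its group for 24 of the 32 genes, 16 of them mitosis genes, and TACI-Ig replicate 5 and NZM2410 replicate 3 also held it for 24 each. Late triple therapy replicate 11 held the lowest value for 22. In 30-week replicate 2, 29 of the 32 genes and 49.8% of all genes lay above the mean of the others of its group. These were 30 and 47.6% in TACI-Ig replicate 5, 28 and 47.3% in NZM2410 replicate 3, and 4 and 52.5% in late triple therapy replicate 11.

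The replication genes followed the mitosis genes in the highest kidneys. The same kidney had the highest mean of both in 5 of 5 groups, although in early remission its replication mean was 0.039 where others reached 0.029. The kidney with the lowest mean of both was the same in late triple therapy (replicate 11) and differed in the other groups. In 30-week replicate 2 the replication mean was 0.402 (others −0.113 to 0.046), and in TACI-Ig replicate 5 it was 0.489 (others −0.255 to 0.213). Mki67, Top2a, Cdk1, Bub1, Birc5 and Mcm6 were more than 1 log2 unit above the mean of the other 30-week kidneys in replicate 2. Of all genes, 254 (1.61%) were as far above that mean in this kidney and 54 as far below it. Replicate 2 differed over the whole table, with 275 genes more than 1 log2 unit from the group median, where the other 30-week kidneys had 7 to 28. Bub1, a kinase of the spindle checkpoint, was 5.48 there and 4.2 to 4.53 in the others. In contrast, Rrm1, Tyms and Tk1 were no higher in replicate 2 than in the others (−0.04, −0.01 and −0.31), and Ccnd1 and Cdkn1a differed from them by 0.13 and 0.19.

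**Figure D3:**
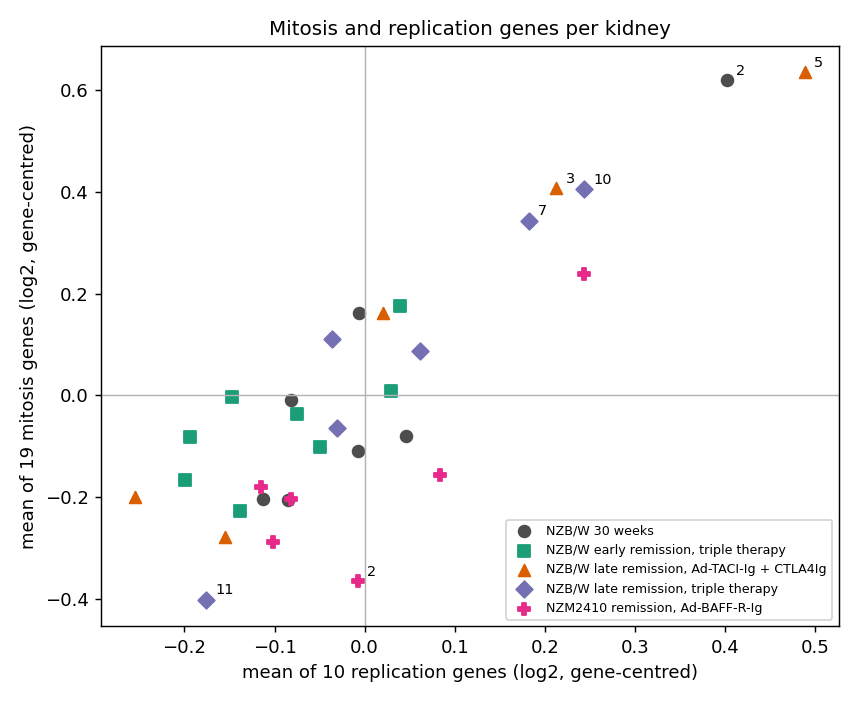
Mean of the 19 mitosis genes (vertical axis) against the mean of the 10 replication genes (horizontal axis) in each kidney, both in log2 units after each gene was centred on its mean over the 32 kidneys, with symbols for the 5 groups and replicate numbers beside some points. The 30-week replicate 2 (0.402 and 0.619) and TACI-Ig replicate 5 (0.489 and 0.634) lie at the upper right.

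Group means were removed before genes were set against each other over the 26 NZB/W kidneys. The median Pearson r of the 171 pairs of mitosis genes was 0.727 (lowest 0.156, highest 0.935), that of the 45 pairs of replication genes 0.384, that between the classes 0.57 and that of all gene pairs 0.007. Without 30-week replicate 2 the mitosis median was 0.695, and without the 6 late triple therapy kidneys, a choice made after the values were seen, 0.739. In the 6 NZM2410 kidneys it was 0.642. These are descriptions over kidneys that share processing, and they carry no p. Top2a (0.96), Birc5 (0.96), Ccna2, the cyclin A2 of replication and mitosis (0.95), Mki67 (0.92) and Cdk1 (0.92) lay closest to the mean of the other mitosis genes, and Mcm5 (0.91) was the closest of the replication genes. Of the mitosis genes 13 of 19 reached an r of at least 0.8, and of the replication genes 4 of 10. Ube2c, the ubiquitin-conjugating enzyme of the anaphase-promoting complex, was the loosest mitosis gene at 0.43. Ccne1 stood at 0.58, Ccnd1 at 0.4, Rrm1 at 0.35, Cdkn1a at 0.2, thymidine kinase Tk1 at 0.12 and Tyms at −0.02. Without 30-week replicate 2, Ube2c stood at 0.26, Rrm1 at 0.46 and Tk1 at 0.28.

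The 10 genes of the whole table whose values followed the mean of the mitosis genes most closely in these 26 kidneys, the mitosis genes themselves left aside, were Nusap1 (r = 0.945), Cdca3 (0.928), Il16 (0.917), Mcm5 (0.914), Ms4a6d (0.91), H2-Ob (0.905), Fcrl1 (0.904), Cd53 (0.901), Ms4a1 (0.901) and P2ry10 (0.896). Nusap1 encodes a spindle protein and Cdca3 a cell division protein. Il16 encodes a cytokine, Cd53 a tetraspanin of leukocytes and Ms4a1 the B cell antigen CD20. Ms4a1 belongs to the B and plasma cell list used here, and its values at 30 weeks were 5.6, 7.81, 4.96, 5.58, 5.23, 6.05 and 5.17 in replicates 1 to 7, highest in the kidney that was also highest for Mki67.

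Macrophage markers were highest in several of the same kidneys. The mean of 16 macrophage markers, centred in the same way, was 1.358 in 30-week replicate 2 (others −0.423 to 0.204), 1.133 in TACI-Ig replicate 5 (others up to 0.617), 0.906 in late triple therapy replicate 10 (others up to 0.515) and 0.924 in NZM2410 replicate 3 (others up to 0.093). The kidney with the highest mitosis mean also had the highest macrophage mean in 4 of 5 groups, the highest tubular injury mean in 4, the highest T cell, B and plasma cell and lymph node means in 3 each, the highest adrenal mean in 2, the highest neutrophil, erythroid and kidney means in 1 each and the highest proximal tubule mean in 0. Early remission replicate 4 was the exception, with a macrophage mean of 0.045 where others reached 0.442. In 30-week replicate 2 the proximal tubule mean was −0.467 and in the other 6 kidneys 0.069 to 0.238. The summed level of the 16 macrophage markers, taken as the log2 of the summed linear values, ran from 12 to 13.83 at 30 weeks, from 11.73 to 12.91 in early remission, from 11.74 to 13.53 in TACI-Ig, from 12.03 to 13.27 in late triple therapy and from 11.81 to 13.52 in NZM2410 kidneys. Of the marker lists, 2 of 16 macrophage, 6 of 10 T cell, 4 of 10 B and plasma cell and 5 of 7 lymph node genes were dim. The adrenal list, whose genes kidney tissue should lack, had a summed level of 9.12 to 12.85 at 30 weeks, 8.96 to 12.4 in early remission, 9.08 to 9.31 in TACI-Ig, 10.32 to 10.8 in late triple therapy and 8.89 to 9.11 in NZM2410 kidneys. Its centred mean was 2.0 in 30-week replicate 2, 1.845 to 1.922 in replicates 1, 3, 5 and 6, and −0.726 and −1.083 in replicates 4 and 7. Replicate 2 therefore did not stand apart in the adrenal list. It did in the lymph node list, with a mean of 1.191 (others −0.311 to 0.261). In that kidney the B and plasma cell mean was 1.081 (others −0.225 to 0.339) and the T cell mean 0.67 (others −0.38 to 0.003). What these cells and tissues contributed to the mitosis genes was not tested.

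**Figure D4:**
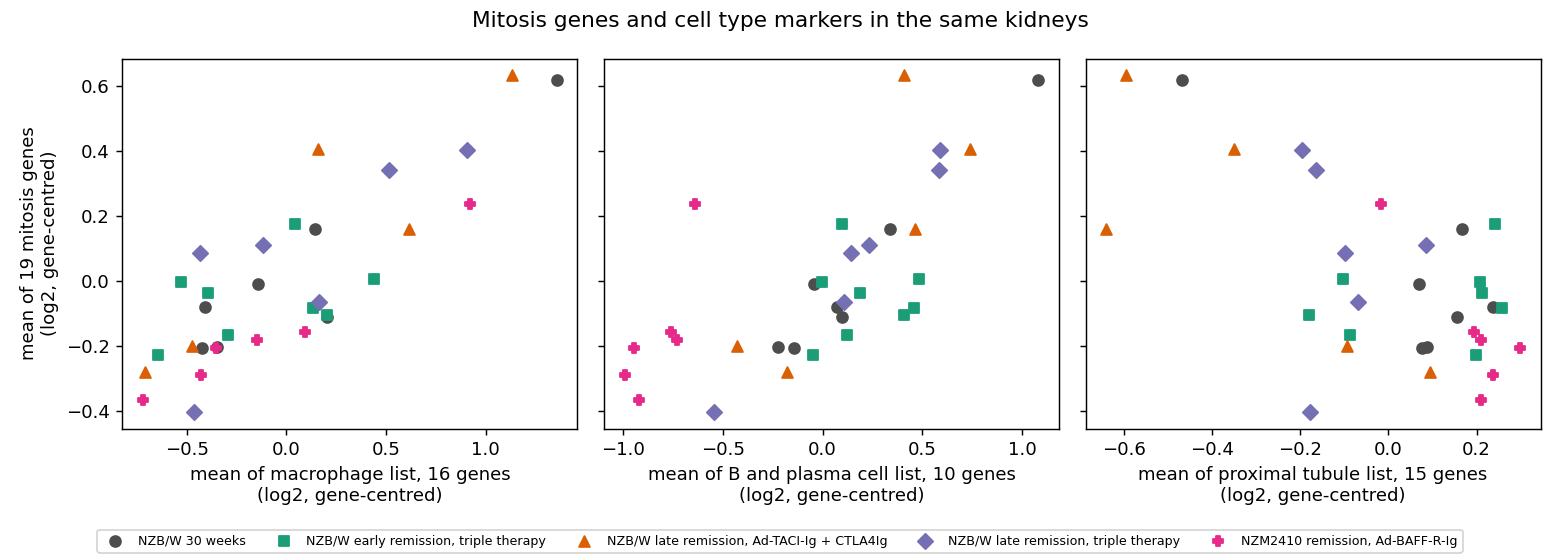
Mean of the 19 mitosis genes (vertical axis) against the mean of 16 macrophage, 10 B and plasma cell and 15 proximal tubule markers (horizontal axes) in each of the 32 kidneys, all in gene-centred log2 units, with symbols for the 5 groups. In 30-week replicate 2 the macrophage mean is 1.358, the B and plasma cell mean 1.081 and the proximal tubule mean −0.467.

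NZM2410 kidneys in remission after Ad-BAFF-R-Ig differed from the NZB/W kidneys in many genes of the whole table, the proliferation genes among them. Against TACI-Ig kidneys, limma called 2 of 32 higher and 11 lower, where 28.6% of all genes were higher and 30.9% lower. Against 30-week kidneys it called 8 higher and 9 lower, where 31.5% and 31.3% of all genes were called. By class, 1 mitosis gene was higher and 9 were lower than in TACI-Ig kidneys, with a median of −0.386, while 1 replication gene was higher and 1 lower, with a median of −0.034. Against 30 weeks, 4 mitosis genes were higher and 7 lower (median −0.307), and 3 replication genes higher and 1 lower (median 0.041). Dim genes as a whole were called lower in 58.4% and 56.5% of cases and higher in 13.7% and 18.3%, with medians of −0.324 and −0.256, whereas the other genes had medians of 0.116 and 0.097. After quantile normalization of the 32 arrays, which gives them the same distribution, the mitosis medians were −0.142 and −0.13, and 23.1% and 24% of dim genes were lower. The calls were then 2 higher and 5 lower against TACI-Ig, and 5 and 5 against 30 weeks, where 24.5% and 27.6% of all genes were higher and 23.3% and 24.6% lower. With arrays centred on their medians instead, 22.6% and 23.7% of all genes were higher and 35.6% and 36.7% lower, and 2 and 5 of the 32 genes were higher and 13 and 15 lower. Of the B and plasma cell markers 8 of 10 were lower in NZM2410 kidneys in both comparisons (medians −0.878 and −0.836), among them Jchain, the joining chain of secreted antibodies, at a mean of 6.82 against 11.04 in TACI-Ig and 11.23 in 30-week kidneys. Of the macrophage markers 2 and 1 of 16 were lower (medians −0.195 and −0.117), and of the proximal tubule markers 11 and 6 of 15 were higher (medians 0.638 and 0.23). Adrenal markers were lower in 6 of 12 against TACI-Ig, where 2 were higher (median −0.216), and in 12 of 12 against 30 weeks (median −2.599). Of 10 neutrophil markers 8 and 7 were lower (medians −0.597 and −0.502), of 7 lymph node markers 4 and 4, and of 9 kidney markers 7 and 6 were higher (medians 0.638 and 0.435). The part of these lists in the differences of the proliferation genes was not tested.

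The proliferation genes that kept their call in both NZM2410 comparisons under every alternative in which they were tested were Tyms, Ube2c and Plk1. Tyms was 4.41, 4.55, 4.22, 4.3, 4.38 and 4.44 in NZM2410 replicates 1 to 6 and 5.3 to 5.69 in NZB/W kidneys, without overlap. The share of all genes without overlap is not given here, and strain and treatment cannot be told apart. It fell by 0.99 against TACI-Ig (SE 0.069, limma adjusted p = 3.84e-07) and by 1.13 against 30 weeks (SE 0.065, adjusted p = 6.72e-09), and after quantile normalization by 0.65 and 0.85. Ube2c was 6.59 to 7.05 in NZM2410 kidneys, with a median of 6.75, and 7.67, 7.43, 7.79, 7.86 and 8.08 in the TACI-Ig kidneys. It fell by 0.98 (SE 0.115, adjusted p = 1.44e-05) and, against 30-week values of 7.16 to 8.06, by 0.66 (adjusted p = 4.99e-04). Plk1, the polo-like kinase that drives entry into mitosis, went the other way, at 7.06 to 7.33 in NZM2410 kidneys against 6.87, 6.33, 6.9, 6.55 and 6.69 in TACI-Ig kidneys. It was 0.55 higher than in TACI-Ig kidneys (SE 0.100, adjusted p = 4.32e-04) and 0.53 higher than at 30 weeks (SE 0.108, adjusted p = 5.7e-04), where replicate 2 reached 7.12. The mitosis list thus held called genes in opposite directions. Plk1 and Ube2c are not dim, and Tyms is.

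Several of the other calls changed with the scaling. Rrm1 was 0.32 higher than in TACI-Ig kidneys (adjusted p = 1.26e-03), at 7.81 to 8.03 against 7.47 to 7.74, and kept that call in every alternative except the stricter filter of the study, although its excess of 0.15 over 30 weeks (adjusted p = 0.0214) was not called after quantile normalization or median centring. Bub1b, the checkpoint kinase BubR1, was 0.39 lower than in TACI-Ig kidneys (adjusted p = 8.12e-03) and Cenpa, the histone variant of centromeres, 0.65 lower than at 30 weeks (adjusted p = 8.1e-03), and each kept that call wherever it was tested, again except under that filter. In the other comparison, Bub1b was not called against 30 weeks (limma adjusted p = 0.0508). Cenpa was 0.47 lower than in TACI-Ig kidneys (limma adjusted p = 0.0353) but lost that call in 6 of 18 alternatives, quantile normalization among them. Top2a was 0.62 higher than at 30 weeks (adjusted p = 0.019), called after quantile normalization as well (0.68, adjusted p = 0.011), and had 5.54 to 5.87 in 5 NZM2410 kidneys and 6.59 in replicate 3. Its difference from TACI-Ig kidneys was 0.44 (adjusted p = 0.124). Cenpe and Kif11, motor proteins of the kinetochore and the spindle, were 0.62 and 0.43 lower than in TACI-Ig kidneys as deposited (adjusted p = 4.27e-04 and 7.31e-04) and 0.14 and 0.13 lower after quantile normalization, when neither was called. Aurkb, the kinase of the chromosomal passenger complex, was 0.35 lower than in TACI-Ig kidneys and 0.05 higher after quantile normalization. Mki67 differed by −0.33 and −0.06 in the 2 comparisons, with adjusted p of 0.438 and 0.852.

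**Figure D5:**
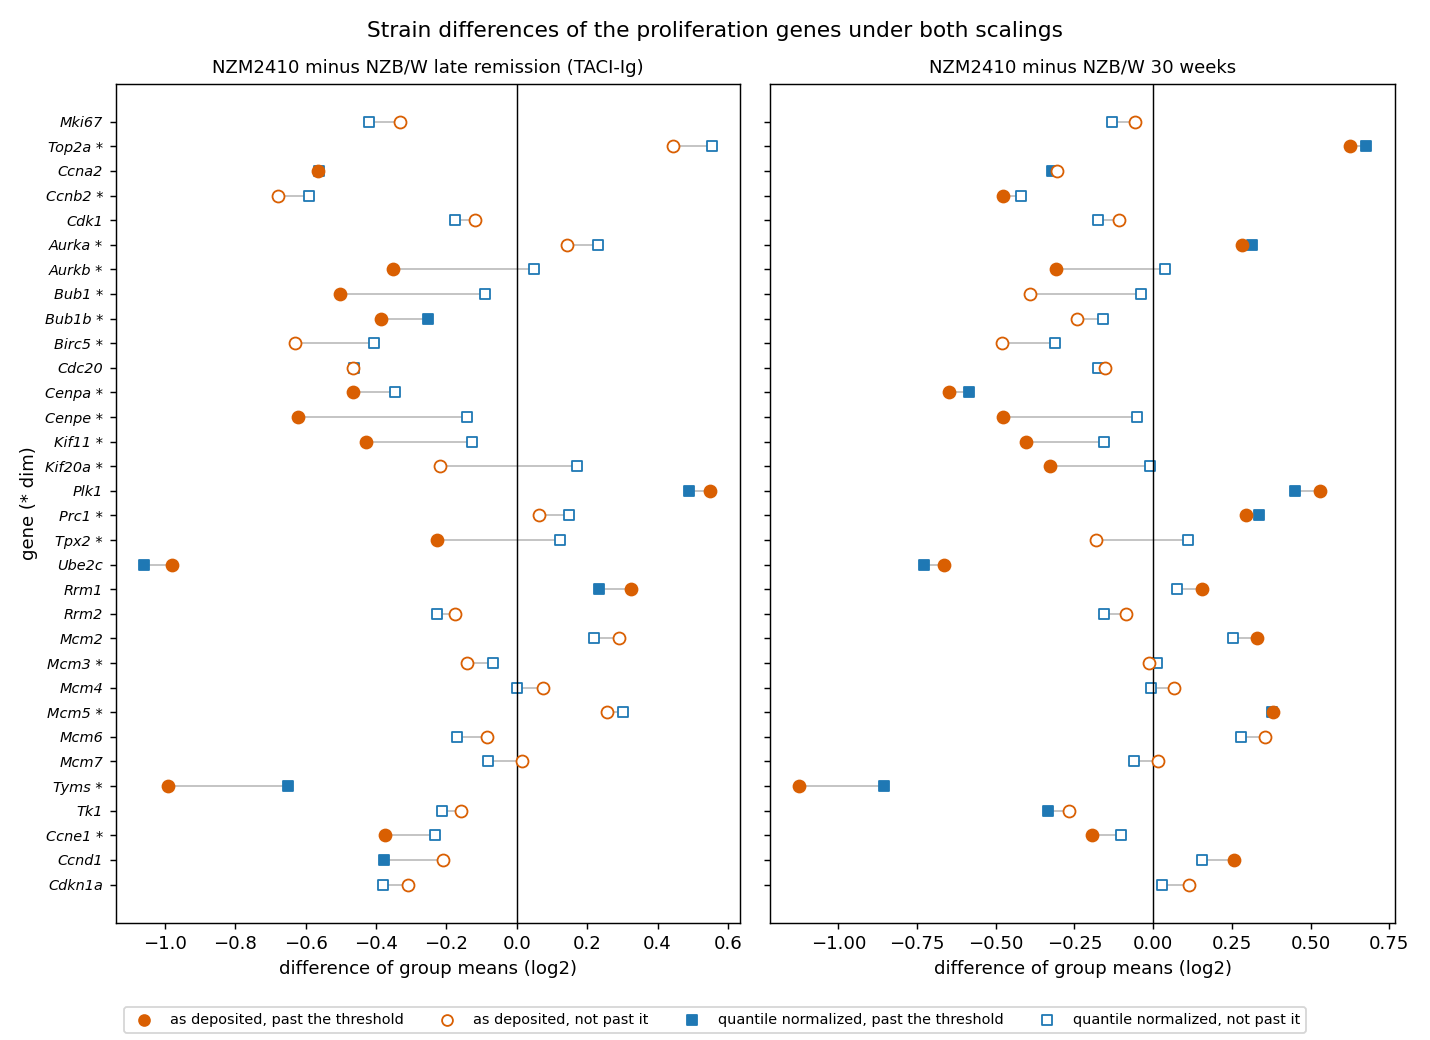
Difference of group means in log2 units (horizontal axes) of each of the 32 genes (vertical axis, an asterisk for dim genes) between NZM2410 kidneys and NZB/W TACI-Ig (left) or 30-week kidneys (right), with circles for the values as deposited, squares after quantile normalization, and filled symbols for genes past the limma threshold of 0.05. On the left, the dim genes Cenpe and Aurkb lie at −0.62 and −0.35 as deposited and at −0.14 and 0.05 after quantile normalization. The dim genes Top2a and Aurka move away from 0 there, from 0.44 to 0.55 and from 0.14 to 0.23. Ube2c, Plk1 and Tyms stay filled on both sides.

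In the wider cell cycle, of 64 other mitosis genes 3 were higher and 30 lower in NZM2410 than in TACI-Ig kidneys (median −0.255, 44 of 64 dim), and of 50 other replication genes 19 were higher and 10 lower (median 0.053, 16 dim). Of 26 other G1 regulators 10 were higher and 8 lower, and of 22 inhibitors of cyclin-dependent kinases and p53 targets 8 and 3. Against 30 weeks the counts were 8 and 26, 22 and 12, 11 and 6, and 9 and 4 in the same order. All genes were called higher in 28.6% and lower in 30.9% against TACI-Ig, and in 31.5% and 31.3% against 30 weeks. Among dim genes 58.4% and 56.5% were lower as deposited, and 23.1% and 24% after quantile normalization. The counts of these lists are for the values as deposited. In the NZB/W comparisons 0 genes of these 4 lists were called. Those with the largest called differences from TACI-Ig kidneys were Rbl2, the retinoblastoma relative p130 (1.01 higher, 9.09 against 8.08), Cdca3 (0.97 lower, 5.43 against 6.40), Pkmyt1, a kinase that restrains Cdk1 (0.92 lower, 6.69 against 7.61), Gmnn, the replication licensing inhibitor geminin (0.87 higher, 8.63 against 7.76), and Myc (0.85 higher, 6.84 against 6.0). Against 30 weeks they were Gmnn (0.95 higher), Cdc25b, a phosphatase that activates Cdk1 (0.92 lower), Cdca3 (0.84 lower), Lin54, the DNA-binding subunit of MuvB (0.82 higher), and Tfdp1, the partner of E2F factors (0.81 lower).

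Within the NZM2410 group, replicate 3 stood above the others in 28 of 32 genes when compared with their mean, as did 47.3% of all genes. Of its values for the 32 genes, 24 were the highest of the group. Top2a was 6.59 there and 5.54 to 5.87 in the others, Ccnb2, cyclin B2, 6.31 and 5.21 to 5.61, Cdc20 6.94 and 5.81 to 6.22, and Kif20a, a kinesin of cytokinesis, 4.74 and 4.17 to 4.34. Plk1 and Ccnd1 were not raised with them (7.21 and 10.2, against means of 7.22 and 10.41). The tubular injury mean of that kidney was 1.082 (others up to 0.133), and its Lcn2 value, of lipocalin 2, was 10.14 where the others had 6.0 to 8.65. NZM2410 replicate 3 and the kidney with the highest mitosis mean of the other group were left out, a choice made after seeing the values. Of the 32 genes, 4 were then higher and 12 lower than in TACI-Ig kidneys, and 7 and 13 than at 30 weeks. With all kidneys kept, 28.6% of all genes were higher and 30.9% lower than in TACI-Ig kidneys, and 31.5% and 31.3% than at 30 weeks. The shares of all genes without these kidneys are not given here.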

How the data were processed

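Whole-kidney total RNA of 32 samples was hybridized to Affymetrix arrays. Whether the 2 samples with the same mouse code came from 1 mouse is not given. The deposited values are log2 expression values with 1 probe set per gene, for which the submitters' processing notes name RMA. Normalization and a batch correction were done jointly on the study's arrays according to its methods. Its batches, like the software version, are not given in the sources used here. Groups were taken from the sample labels. Arrays give no depth, and the number of kidneys limits the precision. The table held 16539 probe sets. Tests covered the 15780 with 1 gene name, leaving aside 64 controls and 695 unnamed ones, and 0 columns of values went unused. Each of 7 comparisons was fitted on its 2 groups by the lmFit and eBayes functions of limma 3.58.1 (R 4.3.3), in place of the SAM test of the methods. Adjusted p-values (Benjamini-Hochberg, 15780 genes) of at most 0.05 were called. The analysis was tested on simulated data. Means of gene-centred values, correlations and promoter letters were computed in Python 3.11.15 with pandas 2.3.3 and numpy 2.4.6, and figures drawn with matplotlib 3.10.9. Promoters are RefSeq's (GRCm38.p6, first listed per gene). The genes and lists were chosen with earlier results of these data known. All of the 34 genes may be named, as may the 5 largest called differences of the other cell cycle lists and the 10 genes closest to the mitosis mean over 26 NZB/W kidneys, and marker genes to give their level. Alternatives were a joint fit over 5 groups, quantile normalization, median centring, a test on the 10520 genes with a mean of at least 6.07, array weights, a trend with a robust prior, the study's filter (adjusted p at most 0.001, fold at least 1.4 or at most 0.7), the replicate number as a block, mouse codes, and each kidney left out.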

Additional observations from a re-analysis of the deposited data

Results flagged for a closer look

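A kidney was taken to stand apart from its group where the gap to its nearest neighbour passed Dixon's 95% critical value. This was tested 175 times, on 32 genes and 3 mean scores in 5 groups, and 19 values were found, where chance alone gives about 1 in 20. Of the 19, 11 belonged to 30-week replicate 2, which was the highest of its group for Mki67 at 8.87 (others 7.06 to 7.59), Top2a at 6.11 (4.71 to 5.22), Bub1 at 5.48 (4.2 to 4.53), Bub1b at 6.11 (5.44 to 5.69), Cenpe at 4.81 (4.16 to 4.29), Mcm2 at 7.52 (6.87 to 7.1), Mcm3 at 6.39 (5.59 to 5.82), Mcm5 at 6.3 (5.46 to 5.64) and Mcm6 at 8.15 (6.76 to 7.32). The mean of all 32 genes in that kidney was 0.498 (others −0.175 to 0.088) and that of the replication genes 0.402 (others −0.113 to 0.046). The genes move together, so these are not separate events.

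In NZM2410 replicate 3 the highest values of the group were Top2a at 6.59 (others 5.54 to 5.87), Ccnb2 at 6.31 (5.21 to 5.61), Cdc20 at 6.94 (5.81 to 6.22), Kif20a at 4.74 (4.17 to 4.34) and the mitosis mean at 0.239 (−0.364 to −0.156). Early remission replicate 7 had the lowest Aurkb value of its group at 4.33 (others 4.5 to 4.61). In late remission after triple therapy, replicate 8 had the lowest Mcm6 value at 6.93 (others 7.38 to 7.61) and the highest Cdkn1a value at 8.39 (others 6.88 to 7.16).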

How the results depend on the processing

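The count of 0 called genes in the NZB/W comparisons held in all alternatives but these. It became 1 without TACI-Ig replicate 2 against 30 weeks (Ccnd1, range 0 to 1 with each kidney left out), and 1 with array weights (Cdkn1a) or up to 3 without TACI-Ig replicate 2 (range 0 to 3) against early remission. The 13 genes called between NZM2410 and TACI-Ig kidneys were 7 after quantile normalization, 4 with the dimmest genes left out, 4 under the study's filter (Cenpe, Plk1, Tyms and Ube2c) and 9 to 16 with each kidney left out. The 17 called against 30 weeks were 10, 5 and 3 (Plk1, Tyms and Ube2c) under the same settings and 15 to 19 with each kidney left out. Of all genes, between 0 and 78 were higher and 0 and 45 lower in early remission against 30 weeks (array weights gave the highest counts), 0 to 517 and 0 to 792 in TACI-Ig kidneys against 30 weeks, 0 to 383 and 0 to 693 against early remission (highest in both without TACI-Ig replicate 2), and 0 to 5 and 0 to 60 between the triple therapy groups (0 and 11 as reported). The study's filter left 1302 higher and 1851 lower of all genes against TACI-Ig and 1176 and 1452 against 30 weeks, and without the dimmest genes these were 3650 and 1718, and 3918 and 1896. Leaving out the dimmest genes removes 17 of the 32 from the test, and the cause of the other changes was not tested. Median centring moved the median of all genes from 0.004 to −0.062 against TACI-Ig and from 0.017 to −0.055 against 30 weeks. It gave 2 higher and 13 lower, and 5 and 15. After quantile normalization Aurkb turned to 0.05 against TACI-Ig and 0.04 against 30 weeks, and Tpx2 to 0.12 against TACI-Ig. The replicate numbers are shared between groups. Deviations from the group mean in kidneys of the same number had an r from −0.71 to 0.34 over pairs. This cannot decide whether such kidneys share more than a number, because the batches are not given. With the replicate block, 0 genes were called in the NZB/W comparisons and 12 and 13 in the NZM2410 comparisons. At most 2 pairs per comparison correlated best with their own number. The count in early remission against 30 weeks was 0 with mice of the BG code alone and without the 2 samples that share a mouse code.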
